A study of Mus musculus with 8 samples.

Results

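The IL-1 receptor family of T cells was examined through 6 of the 12417 entries of a TPM table, chosen by symbol as Il1rl1, Il18r1, Il18rap, Il1r1, Il1r2 and Il1rap. The libraries came from donor CD4+ T cells sorted from the spleens of BALB/c recipients on d5 after allogeneic hematopoietic cell transplantation. The ST2fl/fl donor cells were B6 and CD45.2+, from CD4-CrexR26-LSL-YFPxSt2fl/fl mice, and the ST2WT donor cells were B6, CD45.1+ and St2+/+. Each group had 4 libraries. Both kinds of T cell were given together, with wild-type B6 bone marrow depleted of T cells, to recipients that had received 8 Gy of total body irradiation, and the mice were 6 to 10 weeks old when experiments began. Cre in these donors is driven by Cd4 regulatory sequence, which is active from the double-positive stage of the thymus, so that all αβ T cells of the donor are targeted. The donors differed in the CD45 allele, the Cre transgene and the YFP reporter as well as in St2, and these differences cannot be told apart from the loss of ST2 in any comparison below. In the sort, ST2fl/fl cells were taken as CD45.2+ and YFP+, the reporter of Cre activity, and ST2WT cells as CD45.1+ and YFP-, both negative for the recipient's H2-Kd, and ST2 protein was not among the listed sort markers.

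Receptors of this family share extracellular immunoglobulin domains and, in the signaling chains, an intracellular TIR domain that recruits MyD88 and the IRAK kinases. Il1rl1 encodes ST2, which binds IL-33, Il18r1 encodes the ligand-binding chain of the IL-18 receptor, and Il1r1 encodes the ligand-binding chain for IL-1. Il18rap is the accessory chain for IL-18, whereas Il1rap is the accessory chain that ST2 and IL-1R1 both need. Il1r2 encodes a decoy that binds IL-1 but has no TIR domain. In T cells, ST2 is known from Th2 cells, tissue Tregs and activated Th1 cells, the IL-18 receptor from Th1 cells, and IL-1R1 from Th17 cells.

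Of the 6 members, 5 lie within 477627 bp on the plus strand of chromosome 1 of GRCm38, in the order Il1r2 (40074079 to 40125231), Il1r1 (40225080 to 40317257), Il1rl1 (40429570 to 40465415), Il18r1 (40465552 to 40500854) and Il18rap (40515362 to 40551705). Il1rap lies apart, on the plus strand of chromosome 16 from 26581704 to 26730117. Only 136 bp separate the annotated end of Il1rl1 from the annotated start of Il18r1, against 14507 bp between Il18r1 and Il18rap and 112312 bp between Il1r1 and Il1rl1. Il1rl2, an IL-36 receptor chain that is not a member, stands in the interval between Il1r1 and Il1rl1. Il1rl1 has 5 annotated protein-coding transcripts with 3 to 11 exons, and the gene is known to give a long membrane-bound and a short secreted form. TPM of the whole gene sum all forms and do not show which exons were read.

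The sequences just before the annotated starts of Il1rl1, Il1r1 and Il1rap are shown, Il1rl1 because it is the gene that Cre targets in these donors and the other 2 because their levels were furthest apart between genotypes. They are the 250 bases before each RefSeq start (GRCm38.p6), 5′ to 3′, and all 6 members were matched in that table. Capitals mark letters that match 1 of 6 motifs searched on both strands, namely AGATAA for GATA factors, TCACACC for T-box factors, TGAGTCA for AP-1, TTCNNNGAA for STAT factors, TGTGGTT for RUNX factors and the NF-κB consensus.
Il1rl1, upstream start, chr1:40429320-40429569, plus strand: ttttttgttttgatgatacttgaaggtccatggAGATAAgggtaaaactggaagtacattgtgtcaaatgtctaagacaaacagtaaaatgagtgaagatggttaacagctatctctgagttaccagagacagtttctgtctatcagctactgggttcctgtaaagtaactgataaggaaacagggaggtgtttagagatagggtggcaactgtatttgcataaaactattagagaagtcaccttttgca
Il1rl1, downstream start, chr1:40439379-40439628, plus strand: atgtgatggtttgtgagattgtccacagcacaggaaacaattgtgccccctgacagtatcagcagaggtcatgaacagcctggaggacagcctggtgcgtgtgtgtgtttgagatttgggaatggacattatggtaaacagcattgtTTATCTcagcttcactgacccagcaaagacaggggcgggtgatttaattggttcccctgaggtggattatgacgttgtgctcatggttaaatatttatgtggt
Il1r1, upstream start, chr1:40224830-40225079, plus strand: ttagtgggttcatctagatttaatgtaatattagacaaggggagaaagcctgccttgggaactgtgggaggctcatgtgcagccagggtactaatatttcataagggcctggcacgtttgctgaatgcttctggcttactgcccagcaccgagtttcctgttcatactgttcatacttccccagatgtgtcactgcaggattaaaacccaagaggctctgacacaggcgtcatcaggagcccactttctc
Il1r1, downstream start, chr1:40266336-40266585, plus strand: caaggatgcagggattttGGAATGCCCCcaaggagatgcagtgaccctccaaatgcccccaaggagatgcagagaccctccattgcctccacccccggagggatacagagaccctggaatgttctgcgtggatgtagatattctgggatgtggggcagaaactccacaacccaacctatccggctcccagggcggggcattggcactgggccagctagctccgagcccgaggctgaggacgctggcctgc
Il1rap, chr16:26581455-26581704, plus strand: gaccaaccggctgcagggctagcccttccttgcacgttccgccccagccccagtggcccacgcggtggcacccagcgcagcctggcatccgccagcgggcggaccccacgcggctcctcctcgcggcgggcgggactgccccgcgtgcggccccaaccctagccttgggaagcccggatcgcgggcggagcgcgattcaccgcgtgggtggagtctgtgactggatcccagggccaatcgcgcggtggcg
Both windows of Il1rl1 held 1 GATA motif, 217 bases before the upstream start and, on the other strand, 103 bases before the downstream start. This motif was found in 9.99% of 32851 windows of the same length. The downstream window of Il1r1, which lies in an intron of the longer transcript, held 1 NF-κB match (7.25% of windows), and the upstream window of Il1r1 and the window of Il1rap held none of the 6 motifs. The window of Il1rap was rich in G and C (74.4%, with 30 CpG, against medians of 52.4% and 6 over all windows), whereas the upstream window of Il1rl1 had 37.6% and 0 CpG. In windows not printed, STAT motifs (7.02% of windows), which read the same on both strands, stood before Il1r2 (1 match) and before 1 of the 3 starts of Il18r1 (2 matches), and the window of Il18rap held no match. T-box, AP-1 and RUNX motifs, found in 3.33%, 4.46% and 4.4% of windows, stood in none of the members' windows. These matches are letters in a window and were not tested as binding sites.

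No member passed the threshold between ST2fl/fl and ST2WT donor CD4+ T cells (limma on log2(TPM + 1), adjusted p under 0.05 and fold change over 1.5). Over all 10238 genes whose mean reached 1 TPM, 53 passed, which is 0.518%, with 28 higher (0.273%) and 25 lower (0.244%) in ST2fl/fl cells. All 6 members reached that minimum. At an unadjusted p under 0.05, 2 members, Il1r1 and Il1rap, were higher in ST2fl/fl cells and 0 were lower, against 7.11% of all genes higher, 6.8% lower and 13.9% in either direction. The members had a median log2 fold change of 0.13, beside 0.01 over all genes. Of the 6, 4 (Il1r1, Il1r2, Il18r1 and Il18rap) also stand in the T helper signature that the study compared with these libraries. That list, as read here, prints Il1r1 more than once, and whether an entry stands for Il1rl1 could not be told. Fold changes are ST2fl/fl over ST2WT on the log2(TPM + 1) scale, which understates those of genes at a few TPM. The depth of the libraries is unknown because TPM keep no read totals, so no counting interval can be given for any level.

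One library stood apart. In the ST2WT library of recipient 2 the deviation from the mean of its group's other libraries had an SD over genes of 0.465 on the log2 scale, against 0.242 to 0.279 in the other 7 libraries, and its mitochondrially encoded share of TPM was 9.18%, against 12.7% to 13.8%. Leaving it out changed no member's side of the threshold.

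The sorted cells carried T cell transcripts. All 6 CD4 T cell markers had values, with a summed level of 5610 to 5840 TPM in ST2fl/fl libraries and 4620 to 4960 TPM in ST2WT libraries, without overlap. Cd3g and Cd3d made up most of this sum, and Cd4 itself was 181 ± 12.8 TPM in ST2fl/fl cells and 137 ± 19.3 TPM in ST2WT cells. The table holds only genes above 0 in all 8 libraries, and 0 of 7 macrophage and neutrophil markers, 0 of 6 mast cell and basophil markers and 0 of 3 stromal markers had values in it, although mast cells and neutrophils are known sources of Il1rl1 and Il1r2. Of 4 B cell markers only Cd79b had a value, at 4.71 to 6.99 TPM in ST2fl/fl cells and 7.83 to 10.9 TPM in ST2WT cells, and Cd8b1 was the 1 of 2 CD8 markers with one, at 10.5 to 14.2 TPM in ST2fl/fl cells and 12.4 to 13.5 TPM in ST2WT cells. NK cell markers had values for 3 of 4 genes, with Nkg7, which activated T cells also express, making up most of the sum of 6100 to 6380 TPM in ST2fl/fl and 5440 to 6790 TPM in ST2WT libraries. For erythroid cells the value was that of Hba-a1 alone, 0.968 to 2.60 TPM in ST2fl/fl cells and 1.38 to 3.32 TPM in ST2WT cells.

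Transcripts of the ST2 gene were present in both genotypes, and no difference between them passed the threshold. Il1rl1 had 15.8, 14.9, 16.7 and 17.7 TPM in the ST2fl/fl libraries of recipients 1, 2, 3 and 4, against 18.6, 14.6, 21.3 and 18.2 TPM in their ST2WT libraries. The groups overlapped, with the ST2WT library of recipient 2 the lowest of all 8 and that of recipient 3 the highest. The mean was 16.3 ± 1.17 TPM in ST2fl/fl cells and 18.2 ± 2.76 TPM in ST2WT cells (SD, n = 4 each). The log2 fold change was -0.14 (SE 0.12, limma adjusted p = 0.608, exact permutation p = 0.257, two-sided here and below), and its 95% interval of -0.42 to 0.13 corresponds to a ratio of TPM + 1 between 0.749 and 1.10. With single libraries left out the log2 fold change was between -0.24 (adjusted p = 0.224 from limma), without the ST2WT library of recipient 2, and -0.06 (adjusted p = 0.821), without that of recipient 3. Il1rl1 was lower in ST2fl/fl cells in 3 of 4 recipients by sign, with ratios of 0.846, 1.03, 0.786 and 0.970. The ratio above 1 was that of recipient 2, whose ST2WT library stood apart. Without that library the unadjusted p of Il1rl1 was 0.0272 (limma, adjusted p = 0.224). In a bulk library, fewer cells that carry a transcript and less of it per cell cannot be told apart. The sources used here do not name the floxed exons, so this whole-gene level checks no genotype label. By flow cytometry, the study reported that ST2 protein was absent from YFP+ ST2fl/fl CD4+ T cells.

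**Figure D1:**
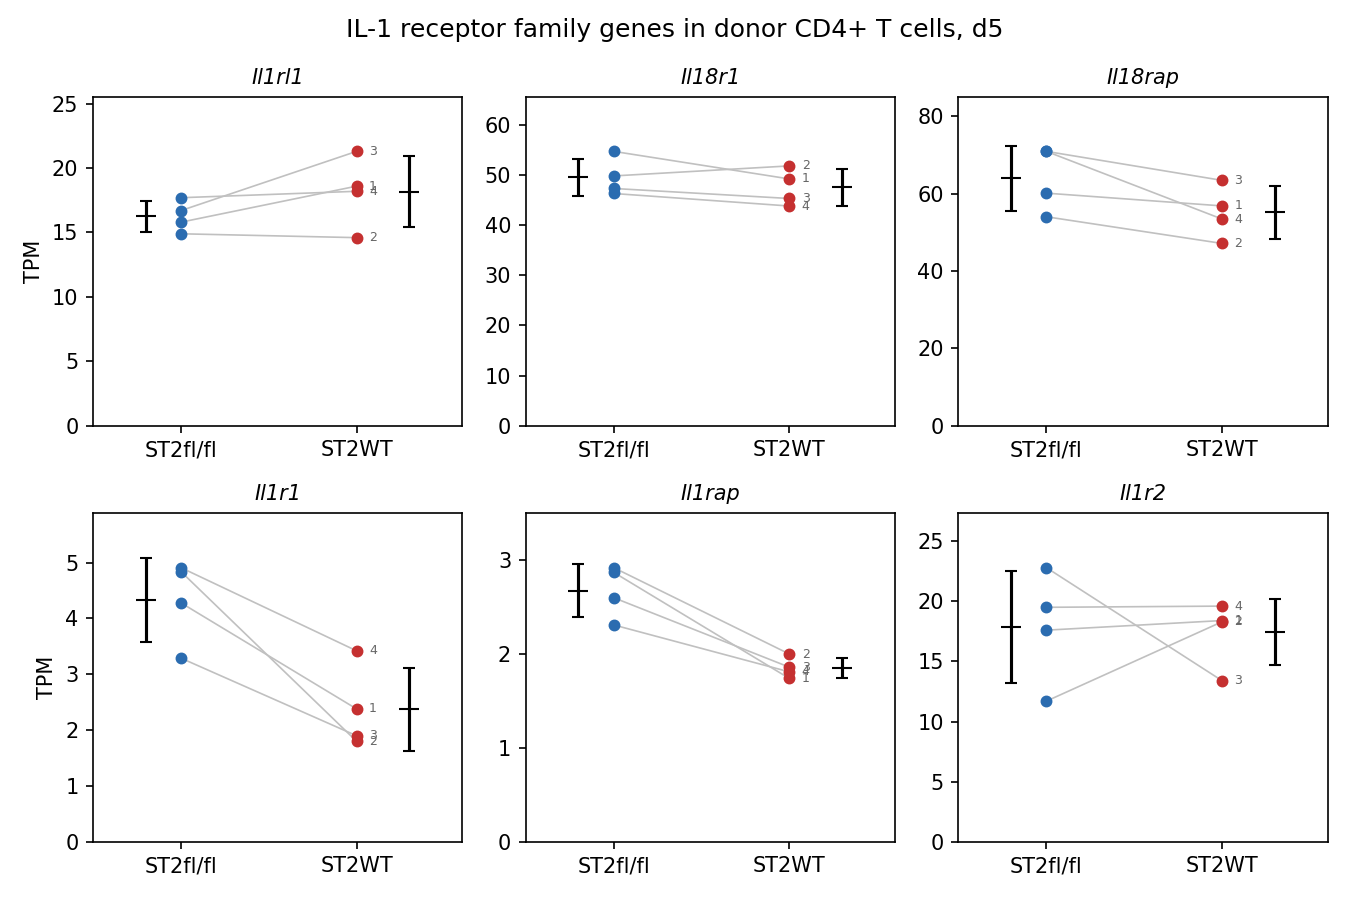
TPM of the 6 members (y axes, each from 0) in ST2fl/fl (blue, left) and ST2WT (red, right) libraries. Points are libraries, lines join libraries with the same recipient number (printed beside the ST2WT points), and black bars give the mean and SD of 4 libraries. For Il1rap the 4 ST2fl/fl libraries, at 2.31 to 2.92 TPM, all lie above the ST2WT libraries at 1.74 to 2.0 TPM, and for the other 5 genes the groups overlap.

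Both chains of the IL-18 receptor were the most abundant of the family. Il18r1, the chain that binds the cytokine, had 54.7, 49.8, 47.3 and 46.3 TPM in the ST2fl/fl libraries of recipients 1 to 4 and 49.2, 51.8, 45.3 and 43.8 TPM in the ST2WT libraries. The groups overlapped between 46.3 and 51.8 TPM, a stretch that held 5 of the 8 libraries (log2 fold change 0.06, SE 0.10, 95% interval -0.15 to 0.27, adjusted p = 0.797 from limma, exact permutation p = 0.457). Il18rap, the signaling partner of Il18r1, had 60.1, 54.0, 70.9 and 70.9 TPM in ST2fl/fl libraries against 56.8, 47.1, 63.4 and 53.4 TPM in ST2WT libraries. It was higher in ST2fl/fl cells by sign in 4 of 4 recipients, with ratios of 1.06, 1.15, 1.12 and 1.33, as were 16.7% of all genes tested. The groups nevertheless overlapped (64.0 ± 8.37 TPM in ST2fl/fl cells and 55.2 ± 6.81 TPM in ST2WT cells, log2 fold change 0.21, SE 0.12, 95% interval -0.06 to 0.48, adjusted p = 0.457, exact permutation p = 0.171). The ratio of Il18rap to Il18r1 within a library, which no scaling between libraries can change, ranged from 1.08 to 1.53 in ST2fl/fl and from 0.909 to 1.40 in ST2WT cells.

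Transcripts of the IL-1 binding receptor and of the shared accessory chain were scarcer and lay higher in ST2fl/fl cells, by amounts that did not pass the threshold. Il1r1 had 4.28, 4.84, 3.29 and 4.91 TPM in the ST2fl/fl libraries of recipients 1 to 4, against 2.38, 1.80, 1.90 and 3.42 TPM in the ST2WT libraries. The groups overlapped by a single library on each side, ST2WT of recipient 4 lying above ST2fl/fl of recipient 3. The means were 4.33 ± 0.750 TPM in ST2fl/fl cells and 2.37 ± 0.743 TPM in ST2WT cells (SD, n = 4 each), a ratio of 1.82. On the log2(TPM + 1) scale the fold change was 0.67 (SE 0.17, 95% interval 0.29 to 1.06, adjusted p = 0.134 from limma, exact permutation p = 0.0571). Within recipients the ratios were 1.80, 2.69, 1.73 and 1.44, all above 1, the largest in the recipient whose ST2WT library stood apart. Without that library the log2 fold change was 0.59 (adjusted p = 0.129).

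Il1rap, the chain that ST2 and IL-1R1 share, was the only member whose groups did not overlap. It had 2.87, 2.92, 2.60 and 2.31 TPM in ST2fl/fl libraries and 1.74, 2.0, 1.86 and 1.81 TPM in ST2WT libraries. Every ST2fl/fl library lay above every ST2WT library (exact permutation p = 0.0286, which is the lowest value possible with 4 libraries a side). The same held for 5.45% of all genes tested, and the reverse, ST2fl/fl below, for 4.58%. The means were 2.68 ± 0.280 TPM in ST2fl/fl cells and 1.85 ± 0.111 TPM in ST2WT cells (log2 fold change 0.36, SE 0.12, 95% interval 0.11 to 0.62, adjusted p = 0.220 from limma). The ratios within recipients 1 to 4 were 1.65, 1.46, 1.40 and 1.27. Replicates of Il1rap were close together, with a pooled SD of 0.0884 on the log2 scale against a median of 0.226 over 838 genes whose mean lay within 1.25-fold of its own.

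The decoy receptor gene Il1r2 was close to Il1rl1 in level and varied most between libraries, with a pooled SD of 0.319 on the log2 scale (0.0884 to 0.261 for the other members). It had 17.6, 11.7, 22.8 and 19.5 TPM in ST2fl/fl libraries against 18.4, 18.3, 13.4 and 19.6 TPM in ST2WT libraries. The lowest and the highest of the 8 values were both ST2fl/fl libraries, of recipients 2 and 3. The means were 17.9 ± 4.67 TPM in ST2fl/fl cells and 17.4 ± 2.73 TPM in ST2WT cells (log2 fold change 0.01, SE 0.19, 95% interval -0.41 to 0.43, adjusted p = 0.984 from limma, exact permutation p = 0.971). Its direction was not stable, with ratios within recipients of 0.954, 0.638, 1.70 and 0.996. The ratio of Il1r2 to Il1r1, the decoy to the signaling receptor, was 4.11, 2.42, 6.94 and 3.98 in ST2fl/fl libraries and 7.74, 10.2, 7.09 and 5.73 in ST2WT libraries. The ranges of this ratio overlapped through recipients 3 and 4.

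**Figure D2:**
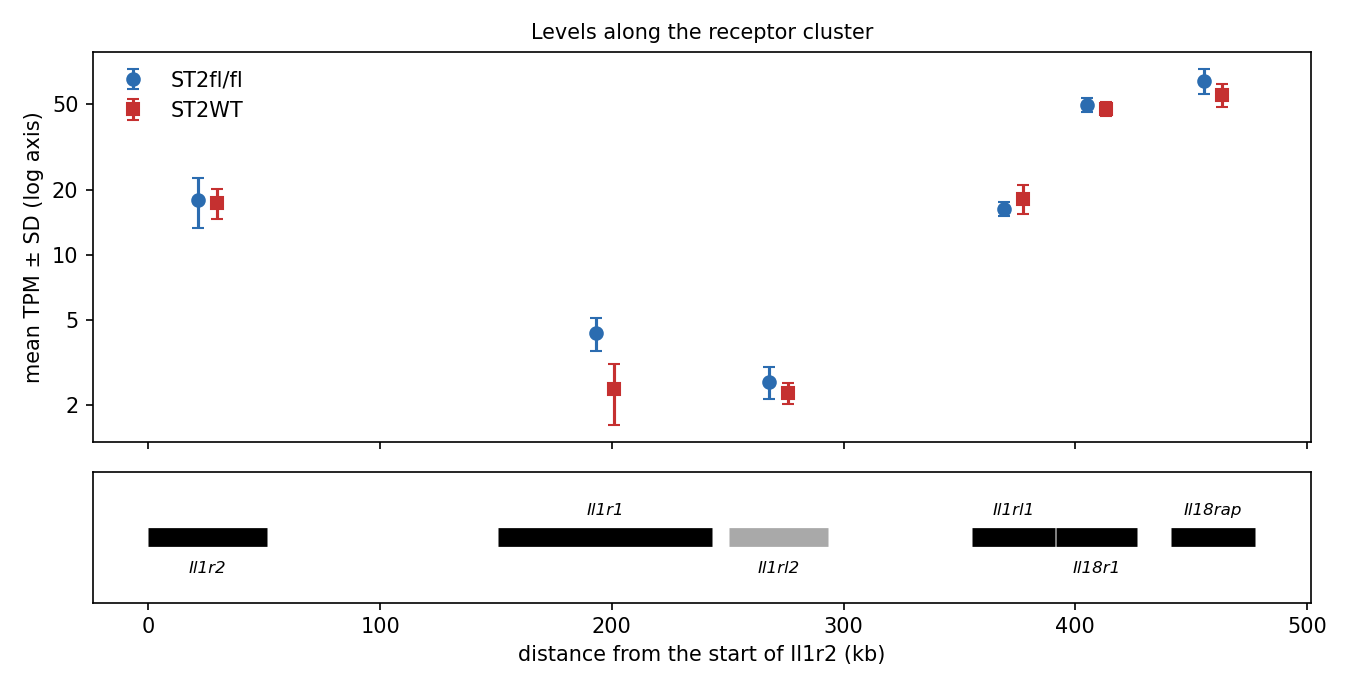
Lower panel, gene bodies of the receptor cluster to scale as distance in kb from the start of Il1r2, with the 5 clustered members in black and Il1rl2 in gray. Upper panel, mean TPM on a log axis with SD bars (n = 4 each) for ST2fl/fl (blue circles, drawn 4 kb left of each gene's middle) and ST2WT (red squares, 4 kb right). The adjacent genes Il1rl1, Il18r1 and Il18rap stand at 16.3, 49.5 and 64.0 TPM in ST2fl/fl cells, and Il1r1 and Il1rl2 are the lowest of the cluster.

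Compared per unit of transcript length, as TPM allow, the order of the members was nearly the same in every library. Il18rap and Il18r1 came first, in the ST2WT library of recipient 2 with Il18r1 ahead and in the other 7 with Il18rap ahead. Their levels overlapped between libraries in both genotypes. Within libraries the ratio of Il18rap to Il18r1 was 1.08 to 1.53 in ST2fl/fl and 0.909 to 1.40 in ST2WT cells, and the order of this pair was not tested. Il1r2 and Il1rl1 came next and changed places, Il1r2 being ahead in 5 of 8 libraries, which their overlapping ranges allow. Il1r1 and Il1rap came last, apart from each other in ST2fl/fl cells (3.29 to 4.91 against 2.31 to 2.92 TPM) but overlapping in ST2WT cells (1.80 to 3.42 against 1.74 to 2.0 TPM). Among the mean levels of all entries in the table, Il18rap stood at percentile 85.9, Il18r1 at 83.6, Il1r2 at 67.9, Il1rl1 at 67.5, Il1r1 at 34.3 and Il1rap at 27.9. Il1rap was thus the scarcest, and the ratio of Il1rl1 to its partner chain was 5.13 to 7.64 in ST2fl/fl libraries and 7.28 to 11.4 in ST2WT libraries, overlapping through ST2fl/fl of recipient 4 and ST2WT of recipient 2. Summed TPM of the 6 members were 155, 138, 164 and 162 in ST2fl/fl libraries and 147, 136, 147 and 140 in ST2WT libraries.

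Some members had their lowest or highest value in the same recipient in both genotypes. Some such matches arise by chance, and their number was not tested against it. Il1rl1 and Il18rap were each lowest in recipient 2 in ST2fl/fl and in ST2WT cells, and the ST2WT library of that recipient is the one that stood apart. Il18r1 was lowest and Il1r1 highest in recipient 4 in both. Il1r2 did the opposite, recipient 3 giving the highest ST2fl/fl and the lowest ST2WT value. With the recipient as a block, no member passed either, beside 0.928% of all genes. The smallest value was that of Il1r1 (adjusted p = 0.0674 from limma), and Il18rap had an unadjusted p of 0.0406 (adjusted p = 0.227).

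**Figure D3:**
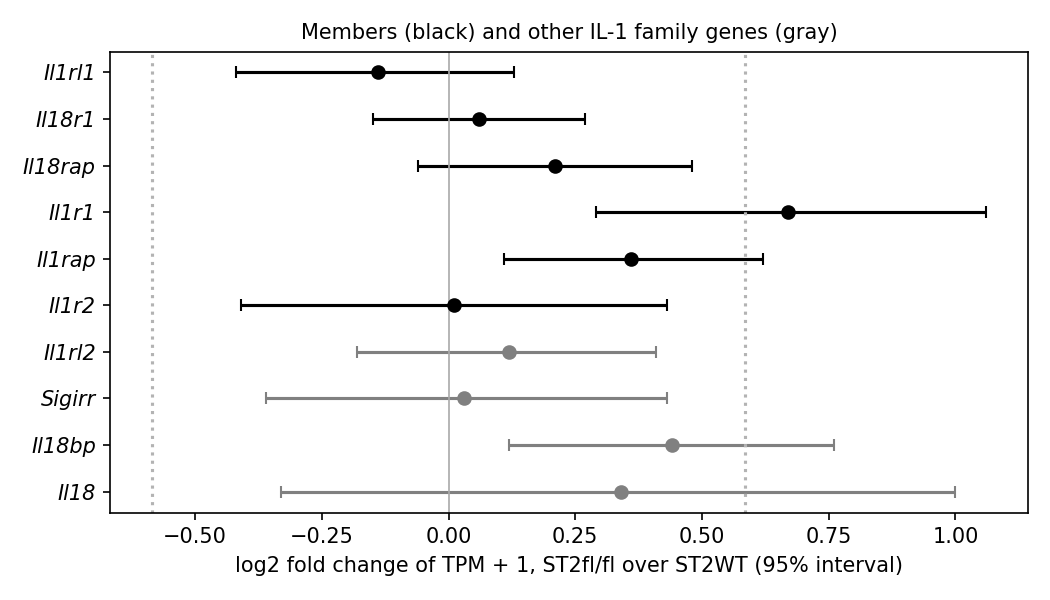
Log2 fold change of TPM + 1, ST2fl/fl over ST2WT (x axis), with 95% intervals from limma over 4 against 4 libraries, for the 6 members (black) and 4 other genes of the IL-1 family (gray). Dotted lines mark a fold change of 1.5 in each direction. The intervals of Il1r1 (0.29 to 1.06) and Il1rap (0.11 to 0.62) lie above 0, and the other 4 members' intervals span 0.

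Other receptors, decoys and ligands of the IL-1 family did not pass the threshold. Of 6 receptors and decoys listed beside the members, 3 were tested in limma, with 0 called in either direction. At an unadjusted p under 0.05, 1 of them, Il18bp, was higher, beside 7.11% of all genes. Il18bp, the soluble inhibitor that binds IL-18, was 2.48 ± 0.562 TPM in ST2fl/fl cells and 1.55 ± 0.230 TPM in ST2WT cells (log2 fold change 0.44 with SE 0.15, limma adjusted p = 0.229). Its groups did not overlap, as in 5.45% of all genes tested with ST2fl/fl above. Sigirr, a TIR receptor that restrains IL-1 family signaling, was 24.0 ± 4.93 TPM in ST2fl/fl cells and 23.6 ± 5.10 TPM in ST2WT cells, and Il1rl2 was 2.58 ± 0.435 TPM in ST2fl/fl cells and 2.28 ± 0.257 TPM in ST2WT cells. Of the listed ligands only Il18 was tested, at 6.07 ± 3.22 TPM in ST2fl/fl cells and 4.28 ± 1.25 TPM in ST2WT cells (adjusted p = 0.612). Of the 10 other genes within 1 Mb of the cluster, 6 were tested in limma and 0 were called, with a median log2 fold change of 0.01. At an unadjusted p under 0.05 there were also 0, beside 13.9% of all genes in either direction. On the left, Map4k4 was 10.1 ± 1.22 TPM in ST2fl/fl cells and 9.74 ± 2.79 TPM in ST2WT cells, and on the right the next entry, Slc9a2, was at 0.177 ± 0.109 TPM in ST2fl/fl cells and 0.179 ± 0.0960 TPM in ST2WT cells, below the minimum for testing.

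Below the receptors, the inhibitory kinase gene Irak3 fell in ST2fl/fl cells, and it was the only gene of the signaling list to pass the threshold. Irak3 encodes IRAK-M, which restrains MyD88 signaling, and lies on the minus strand of chromosome 10 from 120141648 to 120202130. It had 2.08, 1.10, 1.56 and 2.17 TPM in ST2fl/fl libraries of recipients 1 to 4, against 7.54, 7.85, 10.8 and 8.73 TPM in ST2WT libraries, with no overlap (log2 fold change -1.84 with SE 0.17, limma adjusted p = 4.63e-04). Of the 24 tested of 26 adaptors, kinases and ubiquitin enzymes, 1 was called lower and 0 higher, with a median log2 fold change of 0.12. Irak2, an activating kinase, was 5.41 ± 0.713 TPM in ST2fl/fl cells and 3.66 ± 0.588 TPM in ST2WT cells (adjusted p = 0.185), and Myd88, the adaptor of the signaling receptors, was 67.6 ± 2.89 TPM in ST2fl/fl cells and 73.8 ± 19.8 TPM in ST2WT cells (adjusted p = 0.798). Of 18 NF-κB subunits, inhibitors and feedback genes, 0 were called, 15 had a positive log2 fold change, and 3 were higher at an unadjusted p under 0.05, beside 5298 positive of all 10238 genes and 7.11% higher at that p. These were Tnfaip3, which encodes the deubiquitinase A20 (6.33 ± 0.672 TPM in ST2fl/fl cells and 3.98 ± 0.716 TPM in ST2WT cells, adjusted p = 0.121), its partner Tnip1 (18.4 ± 1.12 TPM in ST2fl/fl cells and 12.7 ± 2.51 TPM in ST2WT cells, adjusted p = 0.140) and Nfkb2 (10.8 ± 0.483 TPM in ST2fl/fl cells and 8.03 ± 0.904 TPM in ST2WT cells, adjusted p = 0.173).

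**Figure D4:**
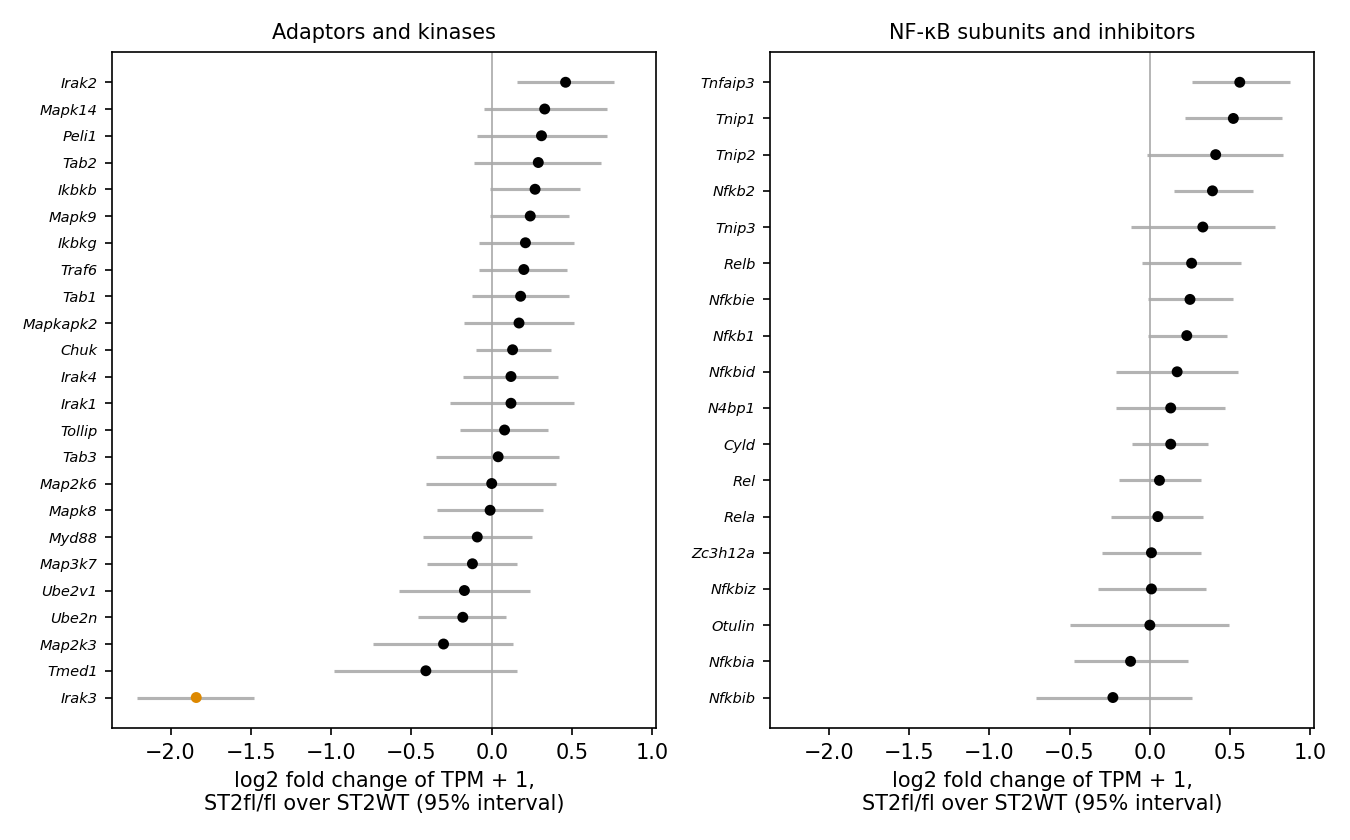
Log2 fold change of TPM + 1, ST2fl/fl over ST2WT (x axis), with 95% intervals from limma, for 24 adaptors, kinases and ubiquitin enzymes (left) and 18 NF-κB subunits, inhibitors and feedback genes (right). Orange marks the 1 gene past the threshold, Irak3 at -1.84, and black marks the rest.

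T cell factors known to regulate these receptors gave 0 calls of 17 tested in limma. At an unadjusted p under 0.05 there were 4 higher and 1 lower, beside 7.11% and 6.8% of all genes. Their median log2 fold change was 0.15, beside 0.01 over all genes. Gata3, which activates Il1rl1 in Th2 cells, was 77.9 ± 11.9 TPM in ST2fl/fl cells and 78.4 ± 15.2 TPM in ST2WT cells, and Stat4, which IL-12 uses to induce the IL-18 receptor, was 165 ± 5.43 TPM in ST2fl/fl cells and 165 ± 23.0 TPM in ST2WT cells. Both genes were named after their values were seen. Batf was 490.0 ± 32.1 TPM in ST2fl/fl cells and 618 ± 57.3 TPM in ST2WT cells (adjusted p = 0.121 from limma), Foxp3, the Treg factor, 10.2 ± 1.05 TPM in ST2fl/fl cells and 6.18 ± 1.58 TPM in ST2WT cells (adjusted p = 0.121), and Maf 79.0 ± 0.477 TPM in ST2fl/fl cells and 64.1 ± 9.18 TPM in ST2WT cells (adjusted p = 0.252). Summed Treg markers, with values for 4 of 5 genes (none for Il2ra), were 147 to 180 TPM in ST2fl/fl and 104 to 139 TPM in ST2WT libraries. The groups did not overlap in this sum, which was higher by sign as Il1r1 and Il1rap were. Among single genes tested, 5.45% had all ST2fl/fl libraries above. Ctla4 made up most of the sum, at 131 ± 17.3 TPM in ST2fl/fl cells and 102 ± 15.5 TPM in ST2WT cells. The sum thus mainly follows that gene and does not measure a share of Tregs. The summed CD4 T cell markers, mostly Cd3g and Cd3d, were higher in ST2fl/fl cells too, also without overlap. Of these 6 markers, 5 were higher at an unadjusted p under 0.05 in limma, beside 7.11% of all genes, and 0 passed the threshold. Cd3g had a log2 fold change of 0.33 (adjusted p = 0.0106 from limma), short of the fold limit, and Cd5 had -0.05. The part of either sum in the levels of the members was not tested. Of 14 tested outputs of IL-33 and IL-18 in T cells, 0 were called in limma. Unadjusted p was below 0.05 for 2 genes with positive and 1 with negative differences (7.11% and 6.8% over all genes). The smallest p values were those of Il10 (21.3 ± 9.77 TPM in ST2fl/fl cells and 8.88 ± 1.19 TPM in ST2WT cells, adjusted p = 0.0835), Gzmb (756 ± 111 TPM in ST2fl/fl cells and 1100 ± 173 TPM in ST2WT cells, adjusted p = 0.106) and Ccl1 (39.5 ± 32.5 TPM in ST2fl/fl cells and 10.5 ± 6.05 TPM in ST2WT cells, adjusted p = 0.309).

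The genes whose levels ran most like each member over the 8 libraries were sought among 7174 genes averaging 5 TPM or more, by Pearson correlation of log2(TPM + 1). The values are a description of these 8 libraries, which share their preparation and the genotype groups. For Il1rl1 the nearest were Lbr (0.946), Myef2 (0.940) and Hmgcs1 (0.938), the last an enzyme of cholesterol synthesis. For Il1r1 they were Bcl2 (0.965), which blocks apoptosis, Mgst2 (0.956) and Dapl1 (0.951). Bcl2 was at 25.3 TPM in ST2fl/fl and 14.7 TPM in ST2WT cells on average and did not pass in the main fit (adjusted p = 0.0501 from limma). It passed as higher with recipients blocked (adjusted p = 0.0286) and without the ST2WT library of recipient 2 (adjusted p = 0.0307). Because Bcl2 was picked for running like Il1r1 over these libraries, its difference is not separate from that of Il1r1. For Il1rap they were E230032D23Rik (0.979), Arel1 (0.958) and Socs3 (0.955), a feedback inhibitor of cytokine receptors at 8.38 TPM in ST2fl/fl cells and 5.84 TPM in ST2WT cells. The genes nearest to Il18r1 were Mgat1 (0.979), Ubald1 (0.946) and F8a (0.938), those nearest to Il18rap were Arhgap15 (0.962), Phtf1 (0.954) and Secisbp2l (0.945), and those nearest to Il1r2 were Wbp1 (0.946), Ppp6r3 (0.936) and S1pr4 (0.916). No gene stood in the first 3 of more than 1 member.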

How the data were processed

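RNA from sorted donor CD4+ T cells was sequenced in 8 libraries. Per the study's methods and the labels, the authors lysed cells in a SmartSeq low-input kit, prepared libraries with Nextera XT, and used CLC Genomics Workbench 20.0.3 to align reads to GRCm38.p6 and assign them to genes. The authors deposited TPM, scaled within each library (column sums 999334 to 999527). TPM hold no read totals, so depth is unknown and the edgeR comparison of the study could not be repeated.

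Of 12417 entries, none at 0, the 10238 averaging 1 TPM or more entered limma 3.58.1 (R 4.3.3), fitted to log2(TPM + 1) with a variance trend, no covariate and Benjamini-Hochberg adjustment. Genes passed at a fold change over 1.5 with adjusted p below 0.05. Exact permutation tests used all 70 labelings and, like the main fit, took no account of the pairing by recipient. Intervals are for the difference in means, from variances that limma draws toward the trend over all genes. They reflect the spread between libraries and not counting error. For Il1rap, whose replicates were close together, the SE was 0.12 with the trend and 0.09 without it. The members and lists were chosen with earlier results of these data known. Named were the members, up to 3 genes with the smallest p in each list with every gene past the threshold, flanking genes, and the 3 genes most like each member. Il1rl2, Sigirr, Myd88, Gata3 and Stat4 were named after their values were seen. Eomes stands on 2 lines of the table and was left out of the lists. Replicate numbers were taken to mark recipients, which the design pairs. Same-numbered libraries deviated together (correlations 0.195, 0.352, 0.118 and 0.163, against -0.283 to 0.109 for different numbers). Alternatives were other pseudocounts, filters, scalings and variance models, array weights, the recipient as a block, and leaving out each library or recipient. On simulated data of 10238 genes for this comparison, 73 of 100 genes changed by 0.8 and 98 of 100 changed by 1.5 on the log2 scale were called, all with means of at least 5 TPM, which Il1r1 and Il1rap do not reach. Positions are from GENCODE M21 on GRCm38 and promoter sequences from RefSeq. Python 3.11.15 and matplotlib 3.10.9 were used.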

Additional observations from a re-analysis of the deposited data

How the results depend on the processing

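No member passed the threshold under any of the alternatives run, with adjusted p from 0.0674 to 0.546 for Il1r1 and from 0.0875 to 0.632 for Il1rap, neither of which has a value with a minimum of 5 TPM. Il1rl1, Il18r1, Il18rap, Il1r1 and Il1rap kept their signs in all alternatives that gave a value, and Irak3, read after its value was seen, was lower past the threshold in 21 of 21. The sign of Il1r2 turned with median-of-ratios scaling (log2 fold change -0.00419), and it ranged from -0.11 to 0.19 with 1 library left out and from -0.23 to 0.22 with 1 recipient left out. With pseudocounts of 0.1 and 5 the log2 fold change was 0.87 and 0.34 for Il1r1, 0.50 and 0.16 for Il1rap, and -2.30 and -1.03 for Irak3.

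The number of genes past the threshold, 53, was 32 with a pseudocount of 5, 130 with array weights, and 95 with the recipient number as a replicate block, which changed no member's call. It was 23 without the ST2fl/fl library of recipient 1 and 104 without the ST2WT library of recipient 2, the range for single libraries, of which only the ST2fl/fl library of recipient 2 (44) left it within 1.5 times of 53, and 9 to 107 with 1 recipient left out (the lowest without recipient 1, the highest without recipient 2). The depth of the libraries is unknown, so counting error could not be set beside genes at a few TPM, such as Il1r1, Il1rap, Il18bp and Irak3.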

Other observations

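Receptor chains of other cytokine families had mostly positive differences, as Il1r1 and Il1rap did. Of 21 tested of 25 such chains, 20 had a positive log2 fold change in ST2fl/fl cells, beside 5298 of all 10238 genes, and at unadjusted p below 0.05 there were 7 higher and 0 lower (7.11% and 6.8% over all genes), and 0 passed the threshold in limma. Their median log2 fold change was 0.24, beside 0.01 over all genes. Il10ra, which binds IL-10, was 12.3 ± 1.99 TPM in ST2fl/fl cells and 7.01 ± 1.69 TPM in ST2WT cells (SD, n = 4 each, adjusted p = 0.0835 from limma), Ifnar2, a chain of the type I interferon receptor, 17.3 ± 1.25 TPM in ST2fl/fl cells and 12.8 ± 0.839 TPM in ST2WT cells (adjusted p = 0.122), and Il7r, the IL-7 receptor of naive and memory cells, 185 ± 42.3 TPM in ST2fl/fl cells and 106 ± 33.0 TPM in ST2WT cells (adjusted p = 0.185). With recipients blocked, Il7r passed as higher (adjusted p = 0.0125 from limma). Il2rg, the common gamma chain and the most abundant of the list, was 2060 ± 112 TPM in ST2fl/fl cells and 1970 ± 373 TPM in ST2WT cells, and was named after its value was seen.

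Among marker genes of other cells, Klrd1, an NK receptor chain that activated T cells can express, was 96.9 ± 30.2 TPM in ST2fl/fl and 178 ± 38.5 TPM in ST2WT cells (adjusted p = 0.134 from limma), and with recipients blocked it passed as lower (adjusted p = 0.01).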
